A study of Mus musculus with 16 samples.

Results

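The comparison described here is that of TE cultures without and with deletion of Pdha1, which encodes E1 alpha of the pyruvate dehydrogenase complex. Its members were chosen by the group labels alone, as the 4 libraries of TPdh-/- TE and the 4 of WT TE, which are 8 of the 16 libraries of the series. Both groups were CD8+ T cells from spleens of OT-I mice, which express a transgenic T cell receptor specific for a peptide of ovalbumin. The cells were activated with that peptide and then kept in IL-2, which gives effector cells (TE). TPdh-/- mice carried floxed Pdha1 (B6.129P2-Pdha1tm1Ptl/J) and CD4-cre, and WT mice kept the gene. CD4-cre is active from the stage of thymic development at which both coreceptors are present, so the gene is already lost in the naive cells that enter culture, and the comparison does not separate an effect in the effector culture from one carried over from before. The other 8 libraries were the same genotypes kept in IL-15 (TM, memory cells). They entered the same fit, so the count filter, the scaling and the spread behind each TE call also rest on them. Their own genotype difference is used below to ask whether the difference depended on the culture. WT TE were libraries 1 to 4 and TPdh-/- TE libraries 5 to 8, and values are listed in that order throughout. Separate animals behind the 4 libraries of each genotype are not stated by the labels. The p values rest on the spread between libraries within groups, taken over all 4 groups of the fit. That spread may be technical.

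The pyruvate dehydrogenase complex stands in the mitochondrial matrix and turns pyruvate from glycolysis into acetyl-CoA, which enters the tricarboxylic acid (TCA) cycle or leaves the mitochondrion as citrate for lipid synthesis and protein acetylation. The complex is switched off when pyruvate dehydrogenase kinases (PDK) phosphorylate the E1 alpha subunit and switched on when phosphatases (PDP) remove the phosphate. Activated effector T cells run glycolysis at a high rate and turn much of their pyruvate into lactate, while glutamine feeds the TCA cycle.

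The TE libraries held 55040115 to 73507566 counts assigned to genes, and 19490 to 20739 genes had at least 1 count. In a principal component analysis of the 8 libraries the first component (52.8% of the variance) parted the genotypes and the second (13.3%) spread the TPdh-/- libraries, from −33.9 for library 5 to 29.7 for library 8, while WT lay between −6.88 and 4.58. Chi-square per degree of freedom over genes was 8.11 to 15.3 between WT libraries and 19.3 to 61.3 between TPdh-/- libraries, so none was a duplicate of another. The markers of CD8 T cells were abundant in all 8 libraries, with summed TPM (a transcript level scaled for gene length and library total) of 3562 to 3817 in WT and 2767 to 3070 in TPdh-/-. Cd4 lay between 0 and 0.32 TPM.

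Levels are given as CPM, which are counts scaled to a common library total with TMM factors, a correction for differences in RNA composition. Differences are log2 of TPdh-/- over WT from an edgeR quasi-likelihood fit, with the SE from the spread of log2 CPM between the 4 and 4 libraries. The p does not follow from this SE, because the fit takes its spread from all 4 groups and shares it across genes. A gene was called when its p, Benjamini-Hochberg adjusted over all 15277 genes tested, was below 0.05. Coordinates are those of GRCm38.

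Pdha1 RNA did not show the deletion. Pdha1 (ENSMUSG00000031299, chromosome X, 160122209 to 160138413) lay at 161, 161, 162 and 160.1 CPM in WT and 156, 147, 155 and 153 CPM in TPdh-/- (log2 difference −0.08, SE 0.0204, edgeR adjusted p = 0.285). The groups did not overlap in CPM, as in 33.1% of all genes tested, with TPdh-/- slightly below WT. In TPM the order was the other way, with 68.04 to 69.5 in WT and 69.5 to 73.6 in TPdh-/-. The floxed exon is exon 8 of the 11 in transcript Pdha1-201, at chrX:160127291-160127362 on the minus strand, and its 72 bases are 2.53% of the 2848 bases of the transcript. Gene-level counts take reads from the rest of the transcript whether or not this exon is present, so they cannot check the labels here. The exon sequence is given because its loss is what separates the 2 genotypes (GENCODE M21, written 5′ to 3′ on the strand of the gene).
Pdha1 exon 8: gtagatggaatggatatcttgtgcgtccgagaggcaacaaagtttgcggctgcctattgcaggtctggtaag

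Among the 13 tested genes for the complex and its regulators, 4 rose and 2 fell (46.2% called). Over all genes tested 31.6% were called, 17.3% higher and 14.3% lower. Pdp1 and Pdp2, the phosphatases that activate the complex, rose, with Pdp2 at 38.1, 38.2, 38.0 and 39.8 CPM in WT and 57.7, 55.5, 48.6 and 55.3 CPM in TPdh-/- (log2 difference 0.49, SE 0.0562, edgeR adjusted p = 5.17e-06) and Pdp1 at 12.8 ± 0.756 CPM in WT and 17.8 ± 2.29 CPM in TPdh-/- (SD, n = 4, log2 0.48, edgeR adjusted p = 0.000187). All 4 TPdh-/- libraries lay above all 4 WT libraries for both phosphatases, as they did in 16.5% of all genes tested. Of the kinases, Pdk2 rose from a low level (log2 0.77, edgeR adjusted p = 0.00364). Pdk1, the kinase induced by hypoxia, fell (log2 −0.30, edgeR adjusted p = 0.0325), but 6 of the 15 other settings took that call away, among them the omission of library 5 (log2 −0.25, edgeR adjusted p = 0.0924). Pdk3, another kinase, was the second gene that fell (log2 −0.18, edgeR adjusted p = 0.0327, named after its value was seen). No gene of the list was called lower with library totals in place of TMM factors, with the TE libraries alone, or without library 8 or library 1. The structural subunits Pdhb, Dlat, Dld and Pdhx were not called, with log2 differences between −0.06 and 0.05.

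Across the genome 4823 of 15277 genes (31.6%) were called, 2641 (17.3%) higher and 2182 (14.3%) lower in TPdh-/- TE. The median log2 difference over all tested genes was −0.00025. Differences over 1 on the log2 scale were mostly upward, with 821 genes (5.37%) higher and 146 (0.956%) lower. The split of the calls depended on the scaling: with library totals in place of TMM factors, 3710 genes were called higher and 1242 lower, and the median of all genes moved by 0.08. Among lists that were mostly lower, library totals left 15 mitosis, 14 T cell identity, 9 homing, 7 hypoxia and 6 replication genes called lower, against 20, 17, 12, 9 and 9 with TMM, and 1 T cell identity gene was then called higher. Both scalings are given beside a list where the change was over 1.5 times. In 5059 genes (33.1%) the TPdh-/- values lay entirely above or entirely below the WT values. Genes named below for the size of their log2 or TPM difference were picked from called genes of this kind. Among them are Klrd1, Lag3, Gzma and Xcr1, and their lack of overlap was set by that choice. The genes called with an absolute log2 over 1 were 6.33% of those tested.

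**Figure D1:**
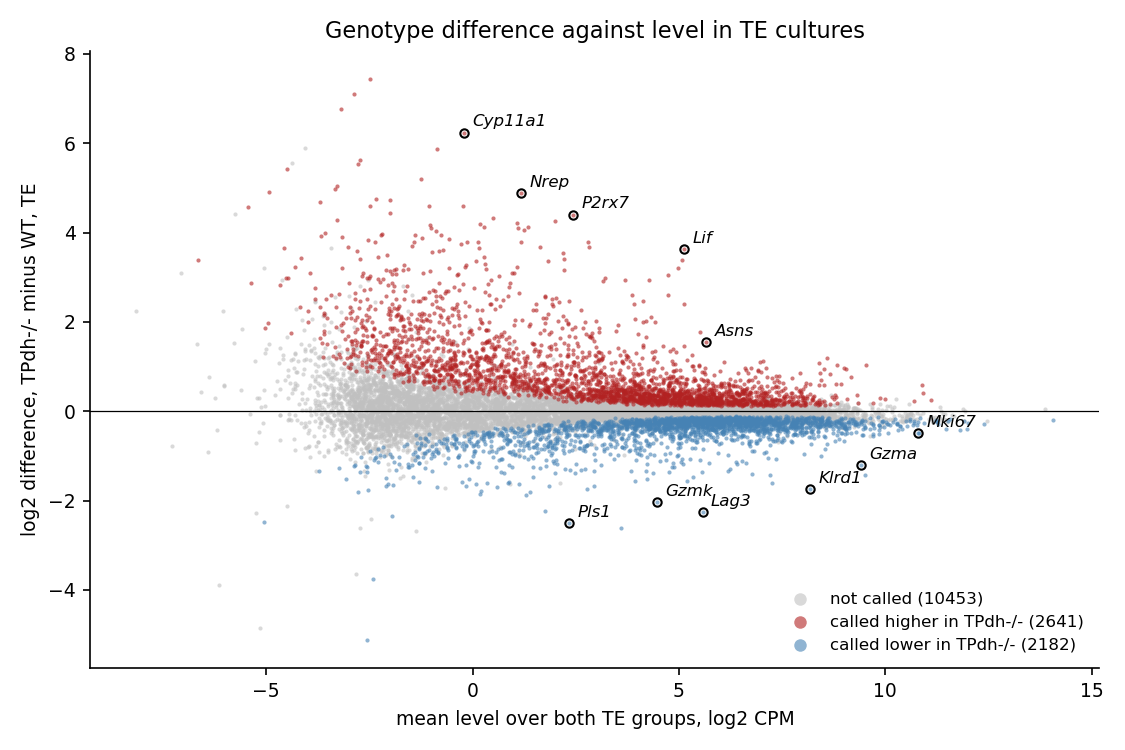
Mean level over the 2 TE groups (x axis, log2 CPM) against the log2 difference TPdh-/- minus WT (y axis), with 1 point for each of 15276 genes and 1 gene without a count in TE left out. Red points are the 2641 genes called higher, blue points the 2182 called lower, and the larger differences lie upward, mostly at low levels.

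The largest increases were in genes that WT effector cells hardly expressed. P2rx7, an ATP-gated ion channel of T cells (ENSMUSG00000029468, chromosome 5, 122643911 to 122691432), lay at 0.890, 0.406, 0.288 and 0.346 CPM in WT and 13.5, 7.95, 10.4 and 9.43 CPM in TPdh-/- (log2 difference 4.40, SE 0.373, edgeR adjusted p = 4.25e-08). Nrep, first described in neurons (ENSMUSG00000042834, chromosome 18, 33437019 to 33464029), lay at 0.141, 0.146, 0.0958 and 0.208 CPM in WT and 6.51, 3.33, 4.17 and 3.57 CPM in TPdh-/- (log2 difference 4.88, SE 0.284, edgeR adjusted p = 4.35e-09). Every TPdh-/- library was more than 3 CPM and every WT library under 1 CPM for both genes. Ptk2, the focal adhesion kinase, rose from 0.109, 0.130, 0.176 and 0.104 CPM to 4.29, 2.63, 2.11 and 1.65 CPM (log2 difference 4.34, SE 0.320, edgeR adjusted p = 6.07e-08). Igsf9b and Pigz, an enzyme of glycosylphosphatidylinositol anchors, rose by 4.12 and 4.12 with little spread, at 4.73, 4.28, 5.49 and 4.64 CPM and 2.74, 2.13, 2.20 and 2.11 CPM in TPdh-/-. Mmp9, a matrix protease, rose by 4.59 and Stxbp6, a SNARE-binding protein, by 4.25. Dlg5, a scaffold protein, rose by 4.20 and Onecut2, a homeobox factor of liver and neurons, by 5.88. Onecut2 had 4 counts in all over the WT libraries and 276 in TPdh-/-, so the size of its difference rests on few counts, with a log2 of 7.19 without library 4. Without that library Mmp9 rose by 5.18.

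The largest decreases were smaller on the log2 scale. Genes averaging under 1 CPM were left out by the naming rule, and for a decrease WT is the higher group. The genes named here therefore had to be expressed in WT, and a contrast in WT level with the increases was not tested. Pls1, an actin-bundling protein (ENSMUSG00000049493, chromosome 9, 95752642 to 95845311), lay at 9.06, 7.78, 8.96 and 8.76 CPM in WT and 0.874, 1.58, 2.35 and 1.24 CPM in TPdh-/- (log2 difference −2.50, SE 0.298, edgeR adjusted p = 2.57e-07). Trpc1, a calcium channel subunit, lay at 6.04, 5.57, 5.70 and 4.88 CPM in WT and 1.25, 1.20, 1.65 and 0.609 CPM in TPdh-/- (log2 difference −2.23, SE 0.302, edgeR adjusted p = 2.06e-05). Pls1 and Trpc1 are neighbours on chromosome 9. Smyd1, a methyltransferase known from muscle, fell from 3.72, 3.77, 5.26 and 3.52 CPM to 1.01, 1.24, 1.25 and 1.15 CPM (log2 difference −1.80, SE 0.148, edgeR adjusted p = 1.93e-07). Smyd1 lies on chromosome 6 beside Cd8b1, which also fell and is described with the T cell genes. Tmem45a, Dnah12, Rassf4, Arap3 and P2ry13 fell by 1.64 to 1.85 on the log2 scale, to means of 0.425 to 1.72 CPM in TPdh-/-.

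Among abundant transcripts, those that lost most TPM were Ifitm1, an interferon-inducible membrane protein, Tmsb4x, which binds actin monomers, and Cd52, a small surface glycoprotein. Ifitm1 fell from 1133, 1062, 995 and 1041 CPM to 381, 433, 369.7 and 391 CPM (log2 difference −1.43, SE 0.0630, edgeR adjusted p = 0.000447). Cd52 (log2 −0.51, edgeR adjusted p = 0.000945) and Myl6, a myosin light chain (log2 −0.41, edgeR adjusted p = 0.000745), fell less. Tmsb4x (log2 −0.28, edgeR adjusted p = 0.0439) was called in all 8 libraries but lost its call in 8 of the 15 other settings, and Eef1a1, a translation elongation factor, was also lower (log2 −0.20, edgeR adjusted p = 0.0096), a call lost with limma-trend and with library totals. Those that gained most TPM were Npm1, a nucleolar protein (log2 0.25, edgeR adjusted p = 0.00521), Vim, an intermediate filament protein (log2 0.23, edgeR adjusted p = 0.0275), and Mbnl1, a splicing factor. The call of Vim was lost without library 1, 2, 4, 5 or 8. Mbnl1 lay at 1504, 1527, 1452 and 1531 CPM in WT and 2358, 2145, 2303 and 2264 CPM in TPdh-/- (log2 difference 0.59, SE 0.0340, edgeR adjusted p = 7.42e-07). Gas5, a noncoding RNA whose introns hold small nucleolar RNAs (log2 0.35, edgeR adjusted p = 0.000786), and Ms4a4c (log2 1.78, edgeR adjusted p = 1.86e-07) rose as well.

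**Figure D2:**
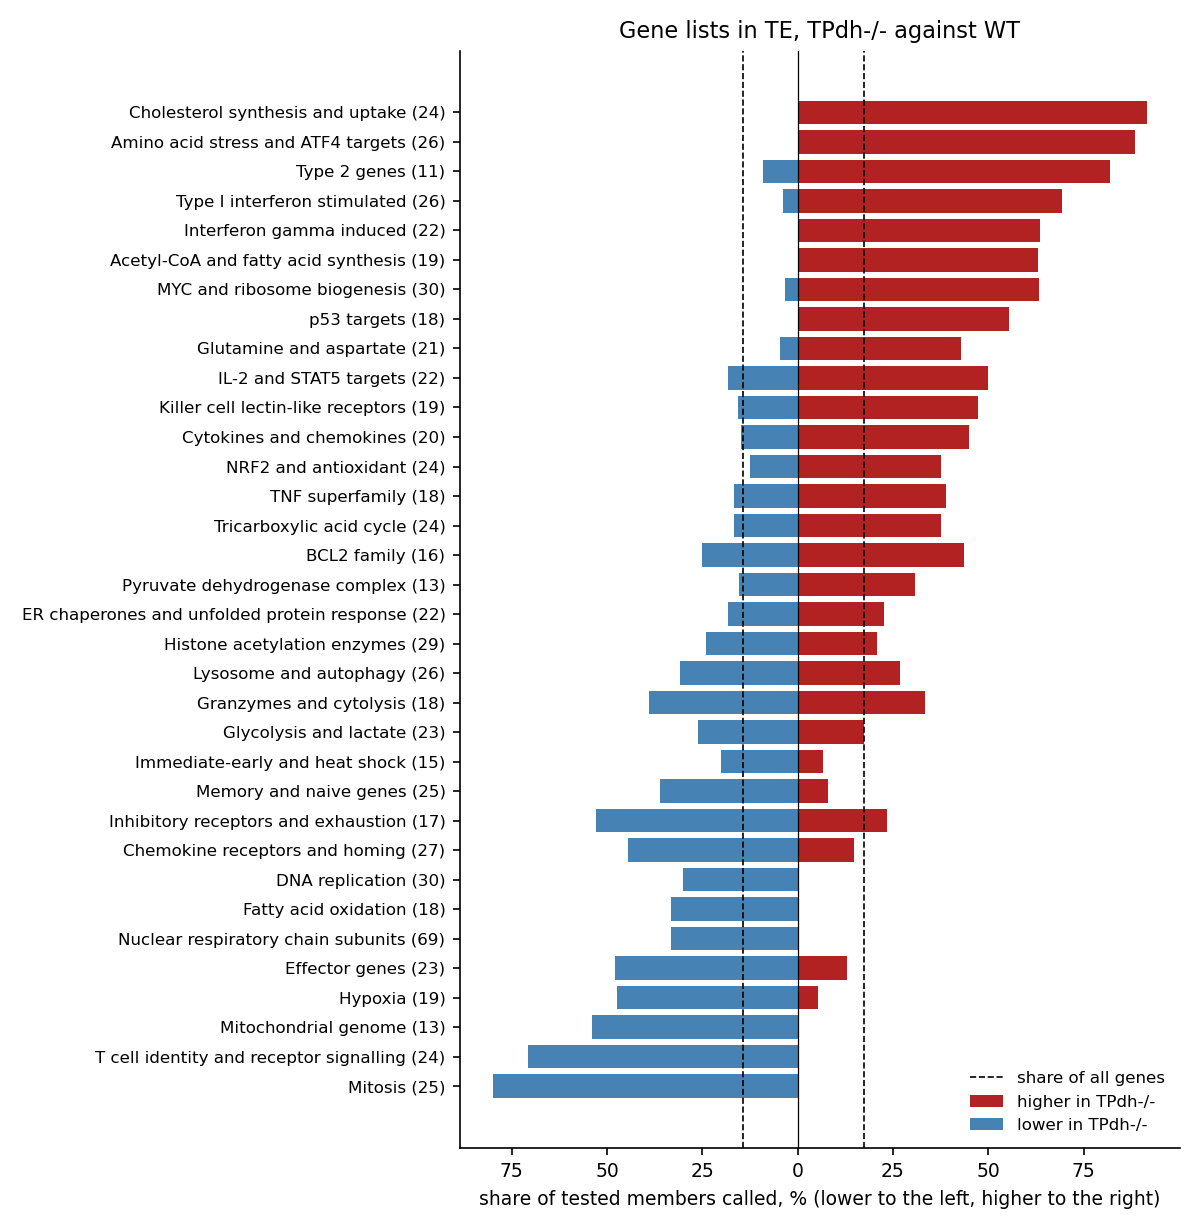
Share of tested members called higher (red, to the right) or lower (blue, to the left) in TPdh-/- TE for 34 gene lists, with the number of members tested in brackets and the shares of all genes, 17.3% higher and 14.3% lower, as dashed lines. Cholesterol synthesis and amino acid stress genes stand at the upper end and mitosis and T cell identity genes at the lower end. Of the 19 killer receptors 5 passed the count filter only through TM. Fewer members did so in the BCL2, cytokine, homing, interferon gamma and histone acetylation lists.

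Genes of cholesterol synthesis rose together. Of 24 tested members of the list, 22 rose and none fell, with a median log2 difference of 0.67 against −0.00025 over all genes. The 2 that were not called were Ebp (−0.09) and Srebf2 (−0.01), which encodes the transcription factor that turns on this pathway. Acat2, which makes acetoacetyl-CoA at the entrance of the pathway (ENSMUSG00000023832, chromosome 17, 12942890 to 12960747), lay at 69.1, 76.4, 68.2 and 76.8 CPM in WT and 159.6, 152, 116 and 139 CPM in TPdh-/- (log2 difference 0.96, SE 0.112, edgeR adjusted p = 2.41e-07). Fdps, which makes farnesyl diphosphate, lay at 234, 241, 233 and 269 CPM in WT and 432, 461, 385 and 484 CPM in TPdh-/- (log2 difference 0.85, SE 0.0862, edgeR adjusted p = 1.29e-05). Lss, which closes the sterol rings, lay at 77.6, 88.2, 82.2 and 88.8 CPM in WT and 176, 167, 130.0 and 153 CPM in TPdh-/- (log2 difference 0.89, SE 0.107, edgeR adjusted p = 3.41e-07). In each of these genes the TPdh-/- libraries were higher than every WT library, and library 7 was the lowest of the 4. Msmo1 (log2 0.96, edgeR adjusted p = 2.92e-07) and Sc5d (log2 0.56, edgeR adjusted p = 6.12e-07), which act on the finished ring system, rose as well. Mvd, another enzyme of the pathway, rose by 1.02 (edgeR adjusted p = 7.31e-07), named after its value was seen. Leaving out any one library left 21 or 22 of the 24 called higher.

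Fatty acid synthesis rose in part. In the list of fatty acid synthesis and acetyl-CoA supply, 12 of 19 tested genes rose and none fell (median log2 0.41). Fasn, fatty acid synthase (ENSMUSG00000025153, chromosome 11, 120805846 to 120824547), lay at 198, 250.01, 249 and 248 CPM in WT and 632, 631, 418 and 463 CPM in TPdh-/- (log2 difference 1.18, SE 0.174, edgeR adjusted p = 4.23e-05). Libraries 5 and 6 were higher than 7 and 8, and all 4 were higher than WT. Elovl6 (log2 0.88, edgeR adjusted p = 3.3e-06) and Elovl5 (log2 0.48, edgeR adjusted p = 1.69e-07), which lengthen fatty acids, and Scd2, which introduces a double bond (log2 0.41, edgeR adjusted p = 0.00357), rose. Slc25a1, the carrier that exports citrate from mitochondria, rose from 20.5, 21.3, 21.3 and 22.4 CPM to 34.2, 36.6, 28.7 and 34.7 CPM (log2 difference 0.65, SE 0.0807, edgeR adjusted p = 1.71e-05). Acss2 (0.08) and Acss1 (−0.23), which make acetyl-CoA from acetate in cytosol and mitochondria, were not called. In fatty acid oxidation 33.3% of the tested genes were called, near the 31.6% of all genes, of which 14.3% were called lower. In that list 6 of 18 genes fell and none rose (median log2 −0.12). They included Cpt1a, which admits fatty acids to mitochondria (log2 −0.48, edgeR adjusted p = 0.000279), the electron carriers Etfb (log2 −0.57, edgeR adjusted p = 0.000405) and Etfdh (log2 −0.33, edgeR adjusted p = 0.000179), and Acaa2 (log2 −0.27, edgeR adjusted p = 0.0086). With library totals in place of TMM factors this list had 3 genes higher and 4 lower.

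Genes of the amino acid stress response rose. The list holds transcription factor ATF4 and genes known to be driven by it when amino acids run short or the mitochondria are disturbed, and 23 of its 26 tested members rose and none fell (median log2 0.69). Vldlr (−0.75), Psph (0.03) and Ddit4 (0.05) were the 3 not called. Asns, asparagine synthetase (ENSMUSG00000029752, chromosome 6, 7675169 to 7693254), lay at 24.9, 23.4, 27.0 and 27.8 CPM in WT and 76.6, 75.05, 62.1 and 87.4 CPM in TPdh-/- (log2 difference 1.55, SE 0.116, edgeR adjusted p = 4.09e-08). Nupr1, a stress-induced nuclear protein, lay at 0.469, 0.341, 0.399 and 0.572 CPM in WT and 5.62, 5.25, 3.90 and 8.06 CPM in TPdh-/- (log2 difference 3.68, SE 0.260, edgeR adjusted p = 7.08e-08). Slc6a9, a glycine transporter, lay at 0.234, 0.292, 0.335 and 0.346 CPM in WT and 4.01, 4.34, 3.15 and 5.30 CPM in TPdh-/- (log2 difference 3.79, SE 0.192, edgeR adjusted p = 5.92e-08). Nupr1 and Slc6a9 were low in all WT libraries and several times higher in all TPdh-/- libraries. Asns was well expressed in WT and higher in every TPdh-/- library. Slc7a3, a transporter of cationic amino acids, rose by 3.41, and Slc7a11, the cystine transporter, by 3.56 from under 0.2 CPM (4.17 without library 1). Atf4 itself rose less (log2 0.52, edgeR adjusted p = 6.19e-06, named after its value was seen).

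Promoters of this list were read because many of its members are listed as ATF4 targets. The C/EBP-ATF response element was searched as TGATGNAAN on both strands, where N is any base, in the windows from 250 bases before to 50 after each gene start (RefSeq, GRCm38.p6). It stood in 3.95% of all 32851 windows and in 4.50% of all genes with a window. Of the 28 listed genes 25 had a window and 9 of them held the element, namely Asns, Atf3, Chac1, Fgf21, Nupr1, Pycr1, Slc7a11, Trib3 and Vldlr. Fgf21 was not tested because of low counts and Vldlr was not called. Since some members entered the list as known targets with such an element, the count is a description of the list. The 5 promoters below belong to genes that rose, are written 5′ to 3′ on the strand of the gene, and have the element in capitals.
Asns, chr6:7693210-7693277, minus strand: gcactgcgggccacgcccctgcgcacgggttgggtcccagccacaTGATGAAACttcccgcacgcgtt
Atf3, chr1:191183390-191183489, minus strand: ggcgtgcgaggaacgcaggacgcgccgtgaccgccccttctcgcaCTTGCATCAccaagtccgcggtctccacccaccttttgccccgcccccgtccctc
Chac1, chr2:119351003-119351102, plus strand: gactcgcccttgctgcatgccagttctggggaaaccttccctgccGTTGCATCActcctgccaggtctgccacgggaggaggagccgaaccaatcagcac
Nupr1, chr7:126625527-126625626, minus strand: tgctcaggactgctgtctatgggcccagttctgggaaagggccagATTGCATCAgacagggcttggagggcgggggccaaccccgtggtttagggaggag
Pycr1, chr11:120643797-120643896, minus strand: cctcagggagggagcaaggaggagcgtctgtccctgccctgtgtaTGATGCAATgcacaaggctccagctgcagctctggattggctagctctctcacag
The element lay 23 bases before the gene start in Asns, 111 in Atf3 and Nupr1, 194 in Chac1 and 103 in Pycr1. Atf3, a stress-induced transcription factor, rose by 2.36, Chac1, which degrades glutathione, by 2.14, and Pycr1, which makes proline, by 1.39. The sterol regulatory element TCACNCCAC, searched the same way, stood in 1.24% of windows and in 1 of the 17 cholesterol genes with a window, Hmgcs1.

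Glutamine and aspartate genes, which overlap with the stress list through Asns and Slc3a2, rose in 9 of 21 cases and fell in 1 (median log2 0.17). Gpt2, the mitochondrial alanine aminotransferase that uses pyruvate and glutamate (ENSMUSG00000031700, chromosome 8, 85492576 to 85527560), lay at 2.08, 1.82, 2.86 and 2.702 CPM in WT and 8.25, 8.54, 7.21 and 10.9 CPM in TPdh-/- (log2 difference 1.88, SE 0.197, edgeR adjusted p = 2.5e-07). Slc7a5, the large neutral amino acid transporter, lay at 65.0, 82.7, 79.3 and 89.1 CPM in WT and 206, 191, 127 and 159 CPM in TPdh-/- (log2 difference 1.11, SE 0.184, edgeR adjusted p = 5e-06). Its partner chain Slc3a2 rose less (log2 0.61, edgeR adjusted p = 1.43e-06), and for all of these genes the groups were apart. With library totals 12 rose and none fell. Without library 5, 6 or 3 the count of higher members went from 9 to 6.

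Genes around pyruvate and the TCA cycle changed in both directions. Of 24 TCA genes 9 rose and 4 fell (median log2 0.00), and the 4 became 2 with library totals and without library 6, 7, 1, 2 or 4. Pcx, pyruvate carboxylase, which makes oxaloacetate from pyruvate without the dehydrogenase complex (ENSMUSG00000024892, chromosome 19, 4510472 to 4621752), lay at 8.34, 11.3, 9.54 and 8.68 CPM in WT and 33.3, 28.9, 20.2 and 19.5 CPM in TPdh-/- (log2 difference 1.43, SE 0.214, edgeR adjusted p = 3.91e-06). All TPdh-/- libraries were above WT, and libraries 5 and 6 were the highest. Pck2, mitochondrial phosphoenolpyruvate carboxykinase (log2 0.69, edgeR adjusted p = 0.000305), and Me1, cytosolic malic enzyme (log2 1.76, edgeR adjusted p = 0.000112), rose, while the mitochondrial malic enzyme Me2 fell (log2 −0.40, edgeR adjusted p = 0.000163). Of 23 genes for glycolysis and lactate 4 rose and 6 fell (median log2 −0.19), and only 3 fell with library totals, without library 8 or without library 3. Slc2a3, a glucose transporter, lay at 377, 349.8, 434 and 321 CPM in WT and 232, 257, 280.5 and 206 CPM in TPdh-/- (log2 difference −0.60, SE 0.133, edgeR adjusted p = 0.000263), and Ldhb, the lactate dehydrogenase chain that favours pyruvate, at 2.42, 3.57, 3.55 and 2.997 CPM in WT and 7.51, 10.2, 10.4 and 13.5 CPM in TPdh-/- (log2 difference 1.73, SE 0.216, edgeR adjusted p = 5.23e-07). Eno2, the neuronal enolase, rose by 3.23 to 0.943, 1.37, 1.41 and 2.60 CPM, and Pfkfb4, which sets fructose 2,6-bisphosphate, by 0.87. The abundant enzymes Ldha (−0.17), Pkm (−0.19) and Gapdh (−0.22) were not called.

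Hypoxia-inducible genes were lower. Of 19 tested, 9 fell and 1, Hif1a (log2 0.16, edgeR adjusted p = 0.0454), rose (median log2 −0.26), a call that 9 of the 15 other settings took away. Egln3, an oxygen-sensing prolyl hydroxylase that is itself induced by hypoxia (ENSMUSG00000035105, chromosome 12, 54178981 to 54203860), lay at 102, 89.6, 113 and 78.5 CPM in WT and 40.5, 52.7, 52.5 and 49.98 CPM in TPdh-/- (log2 difference −0.97, SE 0.145, edgeR adjusted p = 1.67e-05). Ankrd37 (log2 −0.75, edgeR adjusted p = 0.000577), Bnip3l, a receptor for removal of mitochondria (log2 −0.44, edgeR adjusted p = 0.000111), and Pfkfb3, which activates glycolysis (log2 −0.30, edgeR adjusted p = 0.00148), fell. Egln3 had no overlap between groups.

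**Figure D3:**
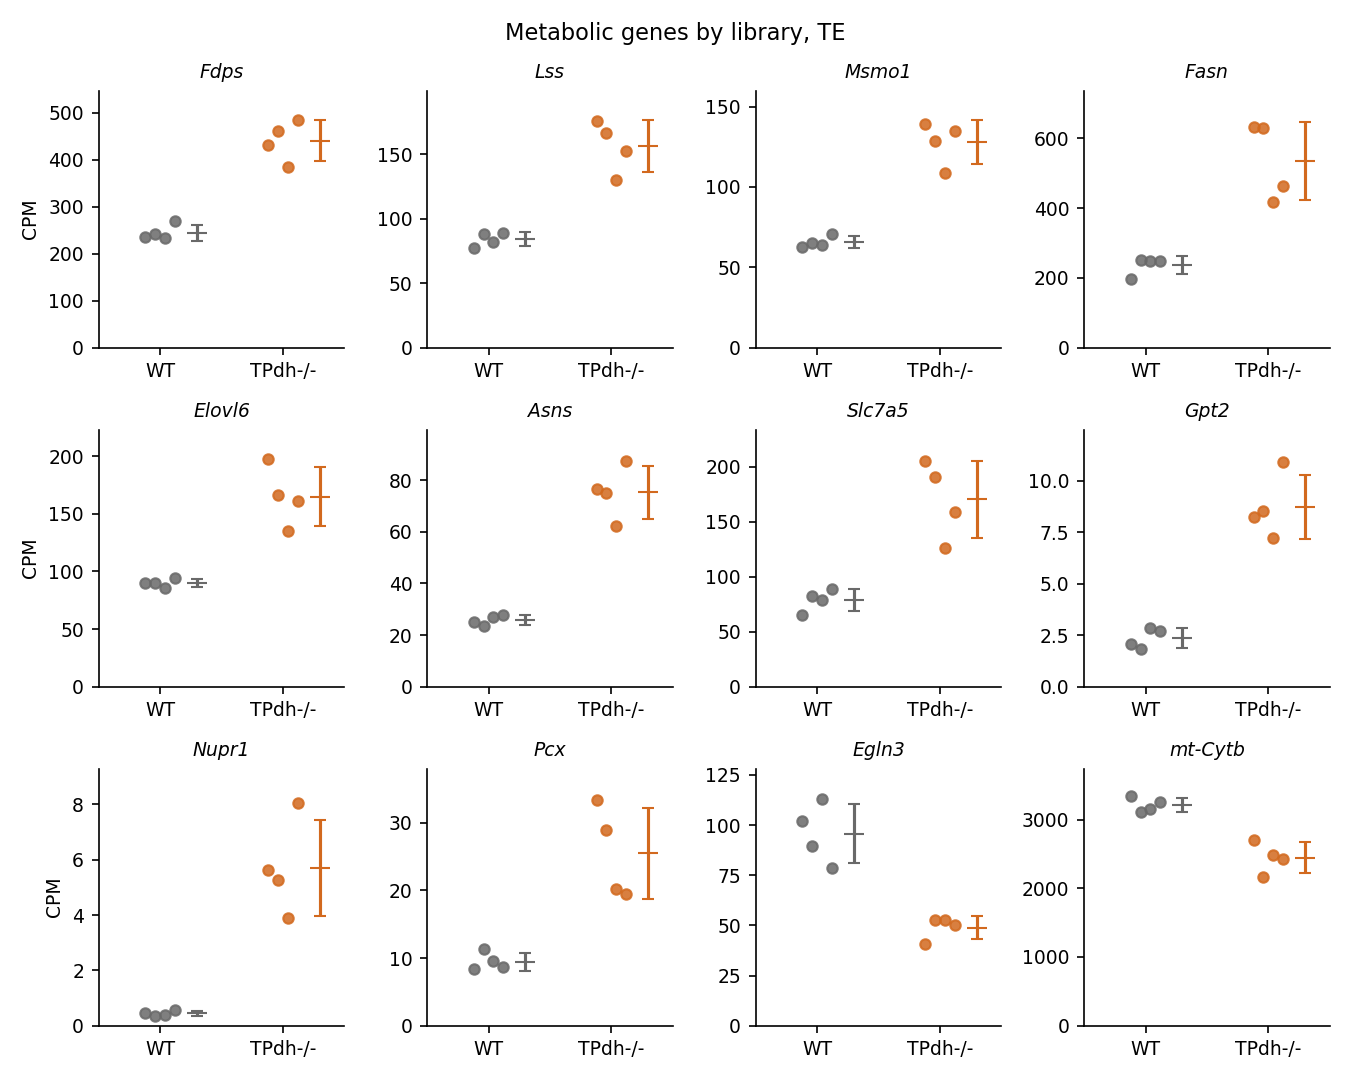
CPM (y axis, from 0) of 12 metabolic genes in the 4 WT and 4 TPdh-/- TE libraries, 1 point a library, with the mean and SD of the 4 libraries beside them. Egln3 and mt-Cytb are lower and the other 10 higher in TPdh-/-, with no overlap between the groups in any panel.

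Respiratory chain genes were slightly lower in a pattern that depended on the scaling. Of 69 nuclear subunits 23 (33.3%, against 31.6% of all genes called and 14.3% called lower) fell and none rose. The median log2 was −0.18. With library totals 10 fell and none rose, and the median was −0.10. Among those called were Atp5j of ATP synthase (log2 −0.43, edgeR adjusted p = 0.00196), Ndufb7 (log2 −0.43, edgeR adjusted p = 0.00265) and Ndufb11 (log2 −0.34, edgeR adjusted p = 0.00134) of complex I, and Cox5b of complex IV (log2 −0.36, edgeR adjusted p = 0.000553). Of the 13 messages of the mitochondrial genome 7 fell and none rose (median log2 −0.29), and 3 fell with library totals. mt-Cytb, of complex III, lay at 3344, 3112, 3159 and 3254 CPM in WT and 2699, 2161, 2489 and 2431 CPM in TPdh-/- (log2 difference −0.40, SE 0.0702, edgeR adjusted p = 0.000113), and mt-Co3 (log2 −0.48, edgeR adjusted p = 0.00333), mt-Nd6 (log2 −0.42, edgeR adjusted p = 0.000948) and mt-Co2 (log2 −0.30, edgeR adjusted p = 0.0154) were also lower. Without library 5, 11 mitochondrial messages were called lower. In a list of NRF2 and antioxidant genes, not all of them NRF2 targets, 9 of 24 rose and 3 fell (median log2 0.12). The counts moved with the setting. With library totals 12 rose and none fell, 11 rose and 1 fell without library 7, 5 rose and 2 fell without library 6, and 5 rose and none fell without library 3. Without library 4 there were 5 higher and 1 lower, and without library 8 or 2 only 1 was lower. Nqo1 (log2 1.04, edgeR adjusted p = 9.24e-05), Sod2, the mitochondrial superoxide dismutase (log2 0.49, edgeR adjusted p = 1.36e-06), and Nfe2l2, which encodes NRF2 (log2 0.39, edgeR adjusted p = 4.46e-05), were among those that rose.

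Growth genes and cell cycle genes moved in opposite directions. Of 30 genes for MYC and ribosome biogenesis 19 rose and 1, Mycn (log2 −0.56, edgeR adjusted p = 0.0497), fell (median log2 0.38), the latter lost in 8 of the 15 other settings. Myc lay at 44.9, 45.2, 50.7 and 46.8 CPM in WT and 75.5, 69.1, 56.4 and 59.2 CPM in TPdh-/- (log2 difference 0.47, SE 0.106, edgeR adjusted p = 0.0108). Odc1, which starts polyamine synthesis (log2 0.51, edgeR adjusted p = 0.000392), Srm, which makes spermidine (log2 0.78, edgeR adjusted p = 0.00145), and the ribosome assembly factors Rrp12 (log2 0.48, edgeR adjusted p = 0.00198) and Wdr43 (log2 0.42, edgeR adjusted p = 0.00268) rose. Library 5 was the highest for each of these, with Srm at 42.3, 31.4, 20.5 and 22.5 CPM in TPdh-/- against 16.4, 19.4, 15.5 and 16.7 CPM in WT. Without library 5, 13 rose and 1 fell. Of 25 mitosis genes 20 (80.0%) fell and none rose (median log2 −0.33). Ccnb2, a mitotic cyclin (ENSMUSG00000032218, chromosome 9, 70407692 to 70421547), lay at 177, 172, 172 and 182 CPM in WT and 109.8, 115, 111 and 117 CPM in TPdh-/- (log2 difference −0.63, SE 0.0297, edgeR adjusted p = 2.41e-05). Mki67, the proliferation antigen, lay at 1993, 2025, 1997 and 2277 CPM in WT and 1509, 1499, 1386 and 1504 CPM in TPdh-/- (log2 difference −0.49, SE 0.0549, edgeR adjusted p = 8.37e-05). Ube2c, of the anaphase-promoting complex (log2 −0.62, edgeR adjusted p = 1.94e-05), and Kif23, of the cleavage furrow (log2 −0.48, edgeR adjusted p = 1.18e-05), fell, and no TPdh-/- library reached the WT range for any of these 4. In DNA replication 9 of 30 fell and none rose (median log2 −0.20). The share called, 30.0%, was near the 31.6% of all genes, of which 14.3% were called lower. Replication genes that fell included Cdt1, the licensing factor (log2 −0.39, edgeR adjusted p = 7.51e-05), Tk1, thymidine kinase (log2 −0.43, edgeR adjusted p = 0.00224), Lig1, a DNA ligase (log2 −0.41, edgeR adjusted p = 0.00172), and Ccne1, cyclin E1 (log2 −0.34, edgeR adjusted p = 0.000363). Leaving out a single library gave 6 to 16 replication genes called lower, the 16 without library 5.

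Of 18 p53 targets 10 rose and none fell (median log2 0.23). Cdkn1a, the cell cycle inhibitor p21 (ENSMUSG00000023067, chromosome 17, 29090976 to 29100727), lay at 40.7, 39.8, 43.1 and 47.7 CPM in WT and 86.7, 80.6, 91.9 and 110.4 CPM in TPdh-/- (log2 difference 1.11, SE 0.113, edgeR adjusted p = 1.14e-05). Zmat3, an RNA-binding protein (log2 1.02, edgeR adjusted p = 1.95e-07), Phlda3, an inhibitor of AKT (log2 1.15, edgeR adjusted p = 9.52e-07), and Aen, a nuclease of apoptosis (log2 0.63, edgeR adjusted p = 0.000246), rose, while Mdm2 (0.05) was not called. In the BCL2 family 7 genes rose and 4 fell of 16, or 6 and 3 of 15 with the TE libraries alone. Among genes that protect from cell death the directions differed. Those that rose included Bcl2, at 413, 435, 447 and 417 CPM in WT and 841, 745, 649 and 674 CPM in TPdh-/- (log2 difference 0.76, SE 0.0878, edgeR adjusted p = 1.32e-06), and Bcl2l1, at 29.4, 35.1, 34.9 and 34.6 CPM in WT and 75.4, 64.6, 49.3 and 55.6 CPM in TPdh-/- (log2 difference 0.87, SE 0.146, edgeR adjusted p = 2.47e-05). Bcl2l11, the death activator BIM, fell, at 218, 228, 219 and 219 CPM in WT and 138, 144, 153 and 114 CPM in TPdh-/- (log2 difference −0.69, SE 0.0935, edgeR adjusted p = 0.000459). The protective genes Mcl1 (log2 −0.15, edgeR adjusted p = 0.0414), Bcl2a1b (log2 −1.33, edgeR adjusted p = 5.43e-07) and Bcl2a1d (log2 −0.77, edgeR adjusted p = 0.00238) also fell, while a further Bcl2a1 copy with almost no counts in WT was called higher. The call of Mcl1 was lost in 6 of the 15 other settings. The Bcl2a1 genes are near-identical copies among which reads can be divided, so their values are uncertain, and Mcl1 and Bcl2a1d were named after their values were seen.

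T cell identity genes were lower. Of 24 tested genes for the T cell receptor, coreceptors and proximal signalling 17 (70.8%) fell and none rose (median log2 −0.34). Cd8b1, the CD8 beta chain (ENSMUSG00000053044, chromosome 6, 71322788 to 71337494), lay at 484, 472, 487 and 482 CPM in WT and 273, 291, 294 and 304 CPM in TPdh-/- (log2 difference −0.73, SE 0.0332, edgeR adjusted p = 2.29e-07). Cd8a, the alpha chain, lay at 788, 768, 738 and 702 CPM in WT and 757, 725, 656 and 627 CPM in TPdh-/- and was not called (log2 difference −0.12, SE 0.0730, edgeR adjusted p = 0.305). The 2 chains of the receptor thus differed, with a gap between the groups for Cd8b1 and overlap for Cd8a. Trac, the alpha constant region (log2 −0.65, edgeR adjusted p = 3.66e-07), Cd5, an inhibitor of receptor signalling (log2 −0.72, edgeR adjusted p = 9.46e-06), and Cd3g (log2 −0.52, edgeR adjusted p = 3.22e-05) fell. In bulk RNA, fewer cells of a type and less RNA per cell cannot be told apart. All 6 markers of gamma-delta T cells were called higher, with summed TPM of 84.0 to 95.5 in WT and 170.1 to 266.7 in TPdh-/-. Most of that sum came from Trdc and from the constant genes Tcrg-C1 and Tcrg-C2, and Sox13, a factor of gamma-delta cells, lay between 0.19 and 1.02 TPM in TPdh-/-. Of 6 plasma cell markers 3 were called higher (sum 3.17 to 9.77 TPM in WT, 10 to 78.6 in TPdh-/-), with the highest value, mostly Igkc, in library 5, and the 7 B cell markers were not called. Of 4 markers of CD4 T cells 2 were called higher (sum 10.5 to 17.0 TPM in WT, 15.8 to 24.6 in TPdh-/-), and Foxp3, the factor of regulatory T cells, lay at 0.29 to 0.47 TPM in WT and 1.66 to 8.10 in TPdh-/- (named after its values were seen). The part of these markers in the lower T cell genes and in the other results was not tested.

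Cytotoxic genes split. Of 18 genes for granzymes and cytolysis 6 rose and 7 fell (median log2 −0.04). Gzma, granzyme A (ENSMUSG00000023132, chromosome 13, 113093825 to 113100981), lay at 898, 926, 967 and 982 CPM in WT and 426, 427, 433 and 345 CPM in TPdh-/- (log2 difference −1.21, SE 0.0841, edgeR adjusted p = 0.00824). Gzmk, granzyme K (ENSMUSG00000042385, chromosome 13, 113171608 to 113225908), lay at 36.4, 35.3, 29.0 and 42.0 CPM in WT and 8.25, 10.4, 8.97 and 7.08 CPM in TPdh-/- (log2 difference −2.04, SE 0.160, edgeR adjusted p = 1.23e-05). Gzmb, granzyme B and the main killing protease of effector cells, lay at 2425, 2599, 2325 and 2531 CPM in WT and 3509, 2739.9, 1976 and 2264 CPM in TPdh-/- and was not called (log2 difference 0.09, SE 0.183, edgeR adjusted p = 0.856). Both neighbouring proteases on chromosome 13 were thus lower in every TPdh-/- library, while Gzmb ranged from below to above WT, with library 5 at the top. Prf1, perforin, which opens the target membrane, rose, at 16.9, 16.9, 18.5 and 18.9 CPM in WT and 43.7, 36.1, 39.6 and 36.0 CPM in TPdh-/- (log2 difference 1.13, SE 0.0783, edgeR adjusted p = 1.12e-06). Gzmg (log2 4.11, edgeR adjusted p = 0.00139) and its near copies Gzmd, Gzme and Gzmf, named after their values were seen, rose by 2.68 to 4.11, but reads can be divided among these copies, and Gzmg varied from 1.18 to 10.2 CPM in TPdh-/-. Library 8 was the highest for Gzmg, and without it the log2 differences were 3.10 for Gzmg, 3.07 for Gzmd and 1.55 for Gzmf. Serpinb6b, a protease inhibitor (log2 −0.89, edgeR adjusted p = 0.000289), and Ctsw, a cathepsin of killer cells (log2 −0.35, edgeR adjusted p = 0.000675), fell.

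Receptors of the killer cell lectin-like family also split, with 9 higher and 3 lower of 19 tested (median log2 0.71). In this list 5 members passed the count filter only with the TM libraries in the table, and with the TE libraries alone 5 were higher and 4 lower of 14 tested (median log2 −0.17). The abundant members fell. Klrd1, the CD94 chain shared by NKG2 receptors (ENSMUSG00000030165, chromosome 6, 129591782 to 129598775), lay at 468, 441, 467 and 411 CPM in WT and 108, 134, 173 and 119 CPM in TPdh-/- (log2 difference −1.74, SE 0.154, edgeR adjusted p = 1.27e-07). Klrk1, the activating receptor NKG2D (ENSMUSG00000030149, chromosome 6, 129610323 to 129623864), lay at 214, 237, 224 and 194 CPM in WT and 86.0, 79.6, 98.2 and 57.6 CPM in TPdh-/- (log2 difference −1.43, SE 0.174, edgeR adjusted p = 9.42e-07). For both genes every TPdh-/- library was far below every WT library. Those that rose included Klra7 (0.411, 0.242, 0.380 and 0.645 CPM in TPdh-/-) and Klrb1b (0.531, 0.364, 0.493 and 0.484 CPM), which were under 0.2 CPM in WT. The defining NK cell markers were near 0, with Ncr1 between 0 and 0.33 TPM. Of the 9 NK markers 5 were called higher and 2, Eomes and Gzma, lower, and the sum, nearly all of it Gzma, was 1658 to 1867 TPM in WT and 722.5 to 916.3 in TPdh-/-.

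Inhibitory receptors fell in 9 of 17 cases and rose in 4 (median log2 −0.36). Lag3, which binds MHC class II (ENSMUSG00000030124, chromosome 6, 124904361 to 124911705), lay at 83.1, 80.9, 82.1 and 69.2 CPM in WT and 13.4, 18.8, 19.8 and 13.8 CPM in TPdh-/- (log2 difference −2.26, SE 0.159, edgeR adjusted p = 4.42e-09). Tigit, a receptor for poliovirus receptor family proteins, lay at 28.8, 28.4, 29.8 and 33.0 CPM in WT and 9.31, 11.8, 12.3 and 12.9 CPM in TPdh-/- (log2 difference −1.37, SE 0.115, edgeR adjusted p = 5.62e-07). These were 4.78-fold and 2.59-fold lower in the fit, with the groups far apart. Pdcd1 (log2 −0.96, edgeR adjusted p = 0.00134) and Ctla4 (log2 −0.99, edgeR adjusted p = 4.45e-06), the receptors targeted in cancer therapy and named after their values were seen, also fell. Btla (log2 0.80, edgeR adjusted p = 1.4e-07) and Cd200r1, at 8.70, 9.43, 7.76 and 9.30 CPM in WT and 34.0, 27.5, 24.9 and 25.2 CPM in TPdh-/- (log2 difference 1.67, SE 0.122, edgeR adjusted p = 6.92e-08), rose.

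Of 23 effector genes 3 rose and 11 fell (median log2 −0.22), with library totals 4 rose and 6 fell, and without library 8 or library 4 the counts were 5 and 8 or 3 and 7. Il2ra, the high-affinity IL-2 receptor chain (ENSMUSG00000026770, chromosome 2, 11642807 to 11693193), lay at 327, 341, 353 and 359 CPM in WT and 749.7, 644, 558 and 731 CPM in TPdh-/- (log2 difference 0.96, SE 0.103, edgeR adjusted p = 9.4e-06). Zeb2, a transcription factor of terminal effector cells, rose from 0.547, 0.714, 0.671 and 0.433 CPM to 3.12, 2.22, 4.22 and 5.48 CPM (log2 difference 2.66, SE 0.318, edgeR adjusted p = 5.23e-07). Runx3, which maintains the CD8 lineage, fell (log2 −0.40, edgeR adjusted p = 0.000824). Ifng (0.46, edgeR adjusted p = 0.0948) was not called, with values of 3.90, 4.12, 3.39 and 3.29 CPM in WT and 7.27, 4.84, 5.08 and 3.03 CPM in TPdh-/- that overlapped.

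Of 25 memory and naive cell genes 2 rose and 9 fell (median log2 −0.13), or 4 and 7 with library totals. Ly6c2, a surface antigen of memory CD8 T cells, lay at 559, 408, 450.4 and 491 CPM in WT and 253, 232, 335 and 238 CPM in TPdh-/- (log2 difference −0.85, SE 0.156, edgeR adjusted p = 0.0102). Ly6c2 was thus lower without overlap, and the low copy Ly6c1 rose to 0.377, 0.593, 0.577 and 1.25 CPM (log2 2.20, edgeR adjusted p = 0.00197). Ly6c1 and Ly6c2 are near copies of each other among which reads can be divided. Tcf7, the factor of self-renewing T cells, ranged from 457, 398, 463 and 447 CPM in WT to 276, 362, 501 and 509.7 CPM in TPdh-/- and was not called (log2 difference −0.10, SE 0.217, edgeR adjusted p = 0.645), with library 5 below and libraries 7 and 8 above all WT libraries. Eomes (log2 −0.67, edgeR adjusted p = 0.000818), Cd27, a costimulatory receptor (log2 −0.66, edgeR adjusted p = 5.39e-06), Foxo1, a forkhead factor of quiescent T cells (log2 −0.32, edgeR adjusted p = 0.000368), and Cd44, the hyaluronan receptor of activated cells (log2 −0.40, edgeR adjusted p = 0.00828), fell.

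Among 27 chemokine receptors and homing genes 4 rose and 12 fell (median log2 −0.14), or 3 and 13 of 26 with the TE libraries alone. Ccr4, a receptor of skin-homing and type 2 T cells (ENSMUSG00000047898, chromosome 9, 114490316 to 114504916), lay at 7.93, 7.79, 9.23 and 8.89 CPM in WT and 40.3, 32.1, 29.0 and 34.6 CPM in TPdh-/- (log2 difference 2.01, SE 0.117, edgeR adjusted p = 6.07e-08). Xcr1 lay at 12.3, 10.2, 12.99 and 11.3 CPM in WT and 2.57, 3.65, 3.96 and 4.53 CPM in TPdh-/- (log2 difference −1.67, SE 0.188, edgeR adjusted p = 3.68e-06). The direction differed between these receptors, and neither had overlapping groups. Gpr183, which senses oxysterols, fell (log2 −0.98, edgeR adjusted p = 2.84e-06).

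**Figure D4:**
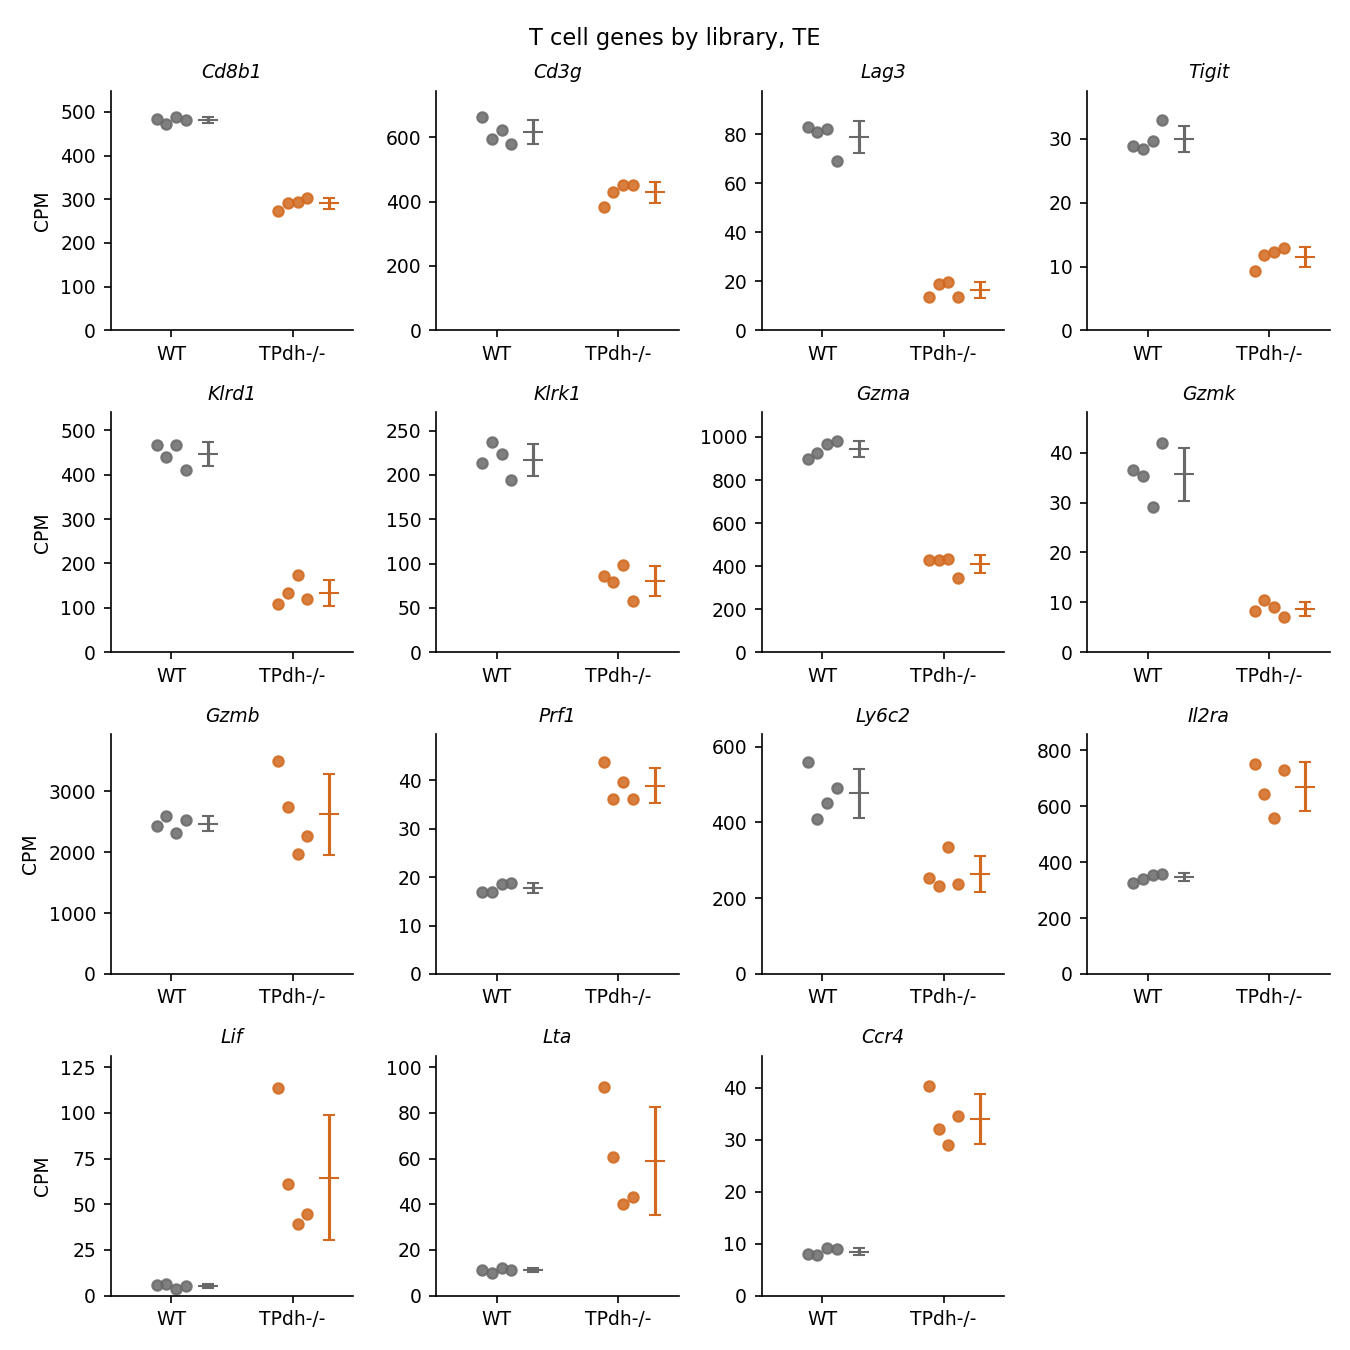
CPM (y axis, from 0) of 15 T cell genes in the 4 WT and 4 TPdh-/- TE libraries, 1 point a library, with the mean and SD beside them. Gzmb overlaps between the groups, Prf1, Il2ra, Lif, Lta and Ccr4 are higher in TPdh-/-, and the other 9 are lower.

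Genes of the IL-2 and STAT5 pathway rose in 11 of 22 cases and fell in 4 (median log2 0.21). Lif, a cytokine of the IL-6 family (ENSMUSG00000034394, chromosome 11, 4257557 to 4272514), lay at 5.72, 6.30, 3.51 and 5.39 CPM in WT and 114, 61.1, 39.0 and 44.5 CPM in TPdh-/- (log2 difference 3.63, SE 0.390, edgeR adjusted p = 2.44e-07). Its neighbour Osm, of the same cytokine family (ENSMUSG00000058755, chromosome 11, 4236420 to 4241026), lay at 15.4, 16.03, 14.7 and 15.8 CPM in WT and 52.01, 38.8, 31.3 and 36.1 CPM in TPdh-/- (log2 difference 1.35, SE 0.157, edgeR adjusted p = 2.42e-07). Both were highest in library 5 and higher than WT in all 4 libraries. Pim1, a kinase induced by STAT5, lay at 208, 208, 216 and 219 CPM in WT and 339, 317, 323 and 335 CPM in TPdh-/- (log2 difference 0.62, SE 0.0298, edgeR adjusted p = 5.9e-08), while Jak1, which signals from the IL-2 receptor, fell (log2 −0.56, edgeR adjusted p = 1.29e-06). Among 20 cytokines and chemokines tested 9 rose and 3 fell (median log2 0.29), or 10 and 1 with library totals. With the TE libraries alone 8 rose and 3 fell of 18 tested. Lta, lymphotoxin alpha, lay at 11.1, 9.97, 12.3 and 11.1 CPM in WT and 91.4, 60.8, 40.2 and 43.1 CPM in TPdh-/- (log2 difference 2.41, SE 0.278, edgeR adjusted p = 1.01e-07). Its neighbour Tnf rose less (log2 0.90, edgeR adjusted p = 1.11e-05), as did Spp1, osteopontin (log2 1.22, edgeR adjusted p = 0.000128), and Cxcl10, a ligand of CXCR3 (log2 1.55, edgeR adjusted p = 0.000127). Of 18 TNF superfamily genes 7 rose and 3 fell (median log2 0.18). Tnfsf8, the CD30 ligand, lay at 84.7, 79.4, 79.1 and 87.2 CPM in WT and 185, 162, 181 and 188 CPM in TPdh-/- (log2 difference 1.12, SE 0.0595, edgeR adjusted p = 1.65e-09). Tnfsf4, the OX40 ligand (log2 2.26, edgeR adjusted p = 2.36e-07), and Tnfrsf25, a death domain receptor (log2 2.77, edgeR adjusted p = 2.68e-06), rose as well.

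Interferon-stimulated genes rose. Of 26 type I genes 18 rose and 1 fell (median log2 0.81), while among 22 interferon gamma genes 14 rose without any that fell (median log2 0.41), with Socs1 and Cxcl10 also in other lists. With the TE libraries alone 13 interferon gamma genes rose and 1 fell of 21 tested. Oasl2, of the antiviral oligoadenylate synthetase family (ENSMUSG00000029561, chromosome 5, 114896936 to 114912234), lay at 0.875, 0.877, 0.639 and 1.32 CPM in WT and 8.28, 5.14, 7.195 and 12.8 CPM in TPdh-/- (log2 difference 3.17, SE 0.341, edgeR adjusted p = 2.8e-07). Usp18, which removes ISG15 from proteins and dampens the interferon receptor, lay at 1.84, 1.61, 1.05 and 1.59 CPM in WT and 10.9, 5.87, 8.28 and 8.98 CPM in TPdh-/- (log2 difference 2.48, SE 0.252, edgeR adjusted p = 6.82e-07). Library 8 was the highest for Oasl2 and library 5 for Usp18. Ifit1 (log2 1.66, edgeR adjusted p = 1.96e-06) and Isg15 (log2 1.33, edgeR adjusted p = 5e-06) rose by smaller amounts. The guanylate-binding proteins, which act on pathogen vacuoles, were already abundant in WT, with Gbp6 at 313, 313, 249.82 and 278 CPM in WT and 588, 491, 444 and 534 CPM in TPdh-/- (log2 difference 0.83, SE 0.117, edgeR adjusted p = 4.23e-05). Gbp4 (log2 0.61, edgeR adjusted p = 7.94e-05), Gbp8 (log2 0.51, edgeR adjusted p = 1.54e-05) and Socs1, the feedback inhibitor (log2 0.78, edgeR adjusted p = 1.89e-05), rose. Gbp genes are close copies, so single members are less certain than the list. Macrophage markers were low in both groups (sum 8.30 to 10.7 TPM in WT and 13.7 to 22.1 in TPdh-/-), 4 of the 6 tested were called higher, and Adgre1, Mrc1 and C1qa were under 0.1 TPM in all 8 libraries.

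Genes known from type 2 lymphocytes rose in 9 of 11 tested cases and fell in 1 (median log2 1.45), mostly from low levels. Pparg, a lipid-activated nuclear receptor (ENSMUSG00000000440, chromosome 6, 115360951 to 115490399), lay at 0.187, 0.114, 0.367 and 0.191 CPM in WT and 2.23, 2.51, 2.55 and 8.83 CPM in TPdh-/- (log2 difference 4.21, SE 0.553, edgeR adjusted p = 5e-06). Cyp11a1, the mitochondrial enzyme that turns cholesterol into pregnenolone, lay at 0.0312, 0, 0.0479 and 0 CPM in WT and 0.497, 0.377, 1.24 and 4.70 CPM in TPdh-/- (log2 difference 6.24, SE 0.863, edgeR adjusted p = 8.71e-05). Library 8 was far above the other TPdh-/- libraries for both, and without it the log2 differences were 3.48 and 4.98. Cyp11a1 had 5 counts over the 4 WT libraries and 407 over the 4 TPdh-/- libraries, and without library 3 its log2 difference was 7.02. Ptgir, the prostacyclin receptor, lay at 0.781, 0.909, 0.974 and 1.23 CPM in WT and 4.17, 4.78, 6.58 and 7.45 CPM in TPdh-/- (log2 difference 2.56, SE 0.235, edgeR adjusted p = 3.21e-07), and Maf, a transcription factor of IL-4 and IL-10, at 10.3, 12.1, 13.6 and 16.4 CPM in WT and 35.9, 32.5, 30.0 and 45.1 CPM in TPdh-/- (log2 difference 1.45, SE 0.189, edgeR adjusted p = 5.39e-06). The gene that fell was Gata3, the factor that defines type 2 cells (log2 −0.32, edgeR adjusted p = 0.0147), which was not called with library totals. The type 2 cytokines Il4, Il5 and Il13 did not pass the count filter.

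The other lists moved less or in both directions. Of 22 chaperones and unfolded protein response genes 5 rose, among them Xbp1 (log2 0.48, edgeR adjusted p = 0.00083) and Herpud1 (log2 0.44, edgeR adjusted p = 0.00041), and 4 fell, among them Sec61b (log2 −0.34, edgeR adjusted p = 0.000329) and Edem1 (log2 −0.16, edgeR adjusted p = 0.00961). With library totals 7 of these rose and 1 fell, and 3 rose and 3 fell without library 1. Of 29 enzymes that add or remove acetyl groups on histones 6 rose and 7 fell (median log2 −0.06), against 7 and 2 (median log2 0.02) with library totals, with Kat2a (log2 0.38, edgeR adjusted p = 0.00287), Hdac6 (log2 0.30, edgeR adjusted p = 0.00243) and Hdac10 (log2 0.28, edgeR adjusted p = 0.00231) higher and Hdac7 (log2 −0.53, edgeR adjusted p = 0.00142) lower. The main nuclear acetyltransferases Ep300 (−0.06) and Crebbp (−0.01) were not called. Of 26 lysosomal genes 7 rose and 8 fell (10 and 5 with library totals), with Ctss (log2 0.57, edgeR adjusted p = 4.38e-06) higher and Ctsc (log2 −0.43, edgeR adjusted p = 1.85e-06) and Ctsd (log2 −0.40, edgeR adjusted p = 6.99e-05) lower. Of 15 immediate-early and heat shock genes 1 rose and 3 fell, a share of 26.7% called that is below that of all genes. Egr1, induced by receptor signals, was the clearest, at 42.6, 37.9, 33.4 and 47.3 CPM in WT and 17.9, 19.7, 23.8 and 29.1 CPM in TPdh-/- (log2 difference −0.83, SE 0.189, edgeR adjusted p = 0.000342). The calls of Egr2 (log2 −0.53, edgeR adjusted p = 0.0201), Ier2 (log2 −0.39, edgeR adjusted p = 0.0342) and Hspa1b (log2 1.57, edgeR adjusted p = 0.0323) were each lost in several other settings.

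Whether these differences were those of the genotype in either culture was asked by setting the TE difference against the TM difference, which comes from the other 8 libraries in the same fit. In TM 2796 genes (18.3%) were called, and 2378 genes (15.6%) had a TE difference that differed from the TM difference (interaction, edgeR adjusted p), 1148 of them (7.51%) with the TE difference above and 1230 (8.05%) with it below the TM difference. With library totals in place of TMM factors these were 1801 and 921. Of the genes called in TE 1412 were also called in TM, which is 29.3% of the TE calls and 50.5% of the TM calls. Of these 1194 had the same direction and 218 opposite directions.

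Killer genes were among those with opposite directions. Gzma fell by 1.21 on the log2 scale in TE and rose by 3.49 in TM (interaction −4.70, edgeR adjusted p = 4.56e-06). Gzmk (−2.04 in TE, 2.80 in TM, interaction edgeR adjusted p = 7.41e-07) and Klrk1 (−1.43 in TE, 1.87 in TM, interaction edgeR adjusted p = 4.98e-08) behaved alike. Of 18 cytolysis genes 12 rose and none fell in TM, against 6 and 7 in TE. Klra5, an Ly49 family receptor, was not called in TE (−0.39) and rose by 5.21 in TM, and Gzmc was −0.26 in TE and 5.19 in TM. Rassf4 (−1.85 and 1.25), Arap3 (−1.67 and 2.93) and P2ry13 (−1.64 and 2.03) likewise fell in TE and rose in TM.

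The lipid genes differed between the cultures in the other sense. Of the 24 cholesterol genes 22 rose in TE, none rose and 1 fell in TM, and 21 had a difference between cultures that passed the test. For Fasn the log2 difference was 1.18 in TE and −0.56 in TM (interaction edgeR adjusted p = 8.18e-05), and for Fdps 0.85 and 0.04 (edgeR adjusted p = 0.00156). Pcx (1.43 and 0.10, interaction edgeR adjusted p = 0.00163) and Gpt2 (1.88 and 0.06, edgeR adjusted p = 0.00015) also rose in TE and were not called in TM. Ccr4 rose by 2.01 in TE and fell in TM (−0.71, interaction edgeR adjusted p = 5.57e-07). In the same sense, Slc15a1, a peptide transporter (3.23 and −0.75), Tnfrsf11a, the receptor RANK (3.78 and 0.18), and Parm1 (3.79 and −0.17) rose in TE and were not called in TM. All 3 passed the test of the difference between the cultures.

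For other groups no difference between the 2 cultures passed the test. Mitosis genes fell in 20 of 25 cases in TE and 19 in TM, with medians of −0.33 and −0.29, and none had an interaction that passed the test. For Cd8b1 the log2 differences were −0.73 in TE and −0.69 in TM (interaction −0.03, edgeR adjusted p = 0.842). For Pls1 they were −2.50 and −2.09 (interaction edgeR adjusted p = 0.517), and for Prf1 1.13 and 1.03 (edgeR adjusted p = 0.729). A missed threshold does not show that such differences were equal.

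**Figure D5:**
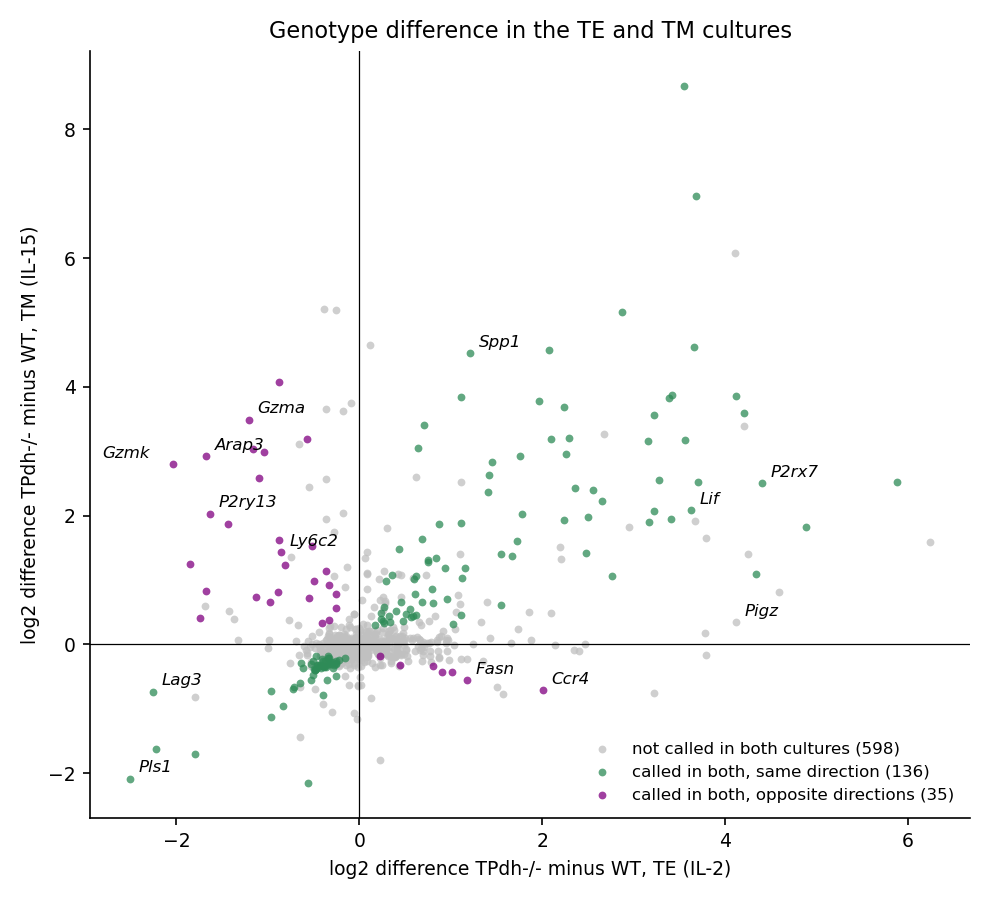
The log2 difference TPdh-/- minus WT in TE (x axis) against that in TM (y axis) for 769 genes of the lists or named by rule, 1 point a gene. The 136 green genes were called in both cultures in the same direction and the 35 purple genes in opposite directions, 28 of them lower in TE and higher in TM, among them Gzma and Gzmk.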

How the data were processed

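Poly(A) RNA of 8 TE libraries (4 WT, 4 TPdh-/-) was compared, with 8 TM libraries in the same fit. The submitters' processing notes name STAR 2.7.6a, RSEM 1.3.3, DESeq2 and the build mm10 (GRCm38). The gene annotation release was not given in the sources used here. The deposited tables held the authors' expected counts from RSEM and the authors' TPM, scaled for gene length and library total, beside FPKM and lengths, of which only the length of Pdha1 was used. An unstranded kit was used.

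Expected counts were rounded, filtered with filterByExpr (minimum count 10, minimum total 15) and TMM-scaled in edgeR 4.0.16 (R 4.3.3), leaving 15277 genes. All 16 libraries entered a single quasi-likelihood fit with a mean for each of the 4 groups, and p values were Benjamini-Hochberg adjusted over all genes of a contrast. The interaction was the TE genotype effect minus the TM effect. The fit was also run on counts simulated from its own estimated levels and spread, which checks the code but not error rates in the real data. GENCODE M21 gave symbols and coordinates for 99.5% of 55401 identifiers. Totals were 55040115 to 73507566 counts.

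Alternatives were DESeq2 1.42.0, limma-trend (limma 3.58.1, prior count 2), RLE factors, library totals, no filter, a minimum count of 50, TE libraries alone, each TE library left out, and a log2 limit of 1. Genes were named by rule: up to 12 called genes per direction by log2 difference (mean of at least 1 CPM, groups not overlapping), up to 8 per direction by TPM difference, up to 4 per list by adjusted p, up to 5 per direction of interaction, and 12 fixed genes such as Pdha1 and Gzmb. Predicted genes, pseudogenes and receptor segments were left out of the parts ranked by size. Genes outside the rule, including list members given as not called or as exceptions, were named after their values were seen, and some genes are not reported here. The comparison, the 34 lists and the markers were chosen with earlier results of these data known, so list counts are descriptions. Python 3.11.15, numpy 2.4.6, pandas 2.3.3 and matplotlib 3.10.9 made tables and figures.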

Additional observations from a re-analysis of the deposited data

Results flagged for a closer look

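For 96 of the 210 genes named, the genotype difference in TE differed from that in TM by the test of the difference itself, and the values that follow are the TE log2 difference minus the TM log2 difference. Among cholesterol and fatty acid genes it was 1.07 for Acat2, 0.81 for Fdps, 0.89 for Hmgcs1, 0.77 for Lss, 0.87 for Msmo1, 1.45 for Mvd, 0.45 for Sc5d, 0.45 for Elovl5, 1.07 for Elovl6, 1.74 for Fasn and 0.57 for Slc25a1. Among genes of amino acids, pyruvate and stress it was 0.94 for Asns, 0.61 for Atf4, 0.57 for Trib3, 1.82 for Gpt2, 0.72 for Slc3a2, 1.34 for Slc7a5, 1.33 for Pcx, 0.39 for Pdp2, 0.75 for Pfkfb4, −0.58 for Slc2a3, −0.44 for Bnip3l, 0.29 for Nfe2l2, 1.05 for Nqo1 and 0.50 for Sod2. For growth, p53 and survival genes it was 1.59 for Mycn, 0.58 for Odc1, 0.44 for Rrp12, 0.89 for Srm, 0.52 for Aen, −0.78 for Cdkn1a, 0.71 for Zmat3, 0.74 for Bcl2, −1.39 for Bcl2a1b, −1.15 for Bcl2a1d, 1.08 for Bcl2l1 and −0.74 for Bcl2l11.

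Cytolysis and killer receptor genes had values of −4.70 (Gzma), −1.35 (Gzmb), −5.44 (Gzmc), −4.84 (Gzmk), −1.70 (Serpinb6b), −0.36 (Ctsw), −5.60 (Klra5), −2.15 (Klrd1) and −3.31 (Klrk1). For T cell, inhibitory and memory genes they were −0.52 (Cd3g), 0.51 (Cd8a), 1.13 (Btla), −0.93 (Ctla4), −1.52 (Lag3), −1.76 (Tigit), −0.50 (Cd27), −0.74 (Cd44), −0.97 (Eomes) and −2.28 (Ly6c2). Homing, cytokine and cytokine pathway genes had 2.72 (Ccr4), −1.64 (Gpr183), −2.50 (Xcr1), −0.61 (Jak1), 1.54 (Lif), 1.60 (Osm), 0.75 (Socs1), 2.51 (Lta), −3.31 (Spp1), 1.34 (Tnf), 3.60 (Tnfrsf11a), 1.70 (Tnfrsf25) and 0.67 (Tnfsf8). Interferon, type 2, acetylation and lysosome genes had −0.51 (Gbp6), 1.64 (Ifit1), 0.99 (Isg15), 1.06 (Usp18), −0.61 (Gata3), −1.37 (Maf), 0.36 (Hdac6), 0.27 (Hdac10), 0.57 (Kat2a), −0.40 (Ctsc) and −0.42 (Ctsd). The genes of large or abundant change had −4.60 (Arap3), −2.27 (Dnah12), 3.78 (Mmp9), 3.06 (Nrep), 1.89 (P2rx7), −3.67 (P2ry13), 3.96 (Parm1), 3.78 (Pigz), 3.25 (Ptk2), −3.09 (Rassf4), 3.98 (Slc15a1), 2.85 (Stxbp6), −0.64 (Cd52), −1.95 (Ifitm1), −0.38 (Myl6) and 0.44 (Vim).

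In 27 of 420 groups of 4 libraries (the 2 TE groups of each named gene), a single library lay far from the other 3 by Dixon's criterion, which chance alone meets in about 1 of 20 groups. Among the 12 cases in TPdh-/- TE, library 8 was the far one for Pparg (8.83 CPM), Spp1 (42.1 CPM), Gbp8 (139 CPM), Gzma (345 CPM) and Eef1a1 (17435 CPM). Library 5 was the far one for Slc15a1 (6.34 CPM), Pigz (2.74 CPM) and Ctsd (560.4 CPM), library 6 for Tnfsf4 (7.74 CPM), and library 7 for Arap3 (2.60 CPM), Serpinb6b (102 CPM) and Mki67 (1386 CPM). In WT TE library 1 stood apart for Bcl2l1 (29.4 CPM), Fasn (198 CPM), Ly6c1 (0.281 CPM) and Nqo1 (3.26 CPM), and library 2 for Bcl2l11 (228 CPM) and Hdac10 (25.1 CPM). Library 3 did so for Dld (105 CPM), Hdac7 (312 CPM), Ier2 (16.2 CPM) and Smyd1 (5.26 CPM), and library 4 for Igsf9b (0.398 CPM), Lag3 (69.2 CPM), Mki67 (2277 CPM), Pdp2 (39.8 CPM) and Tmem45a (0.814 CPM).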

How the results depend on the processing

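The count of genes called for genotype in TE was 4823, and it was 4411 to 5142 with DESeq2, limma-trend, other scalings, other count filters or the TE libraries alone, and 4051 to 4706 with any one library left out. Calls with an absolute log2 over 1 numbered 967. The interaction count of 2378 became 2033 to 2863, and 1839 to 2685 with a library left out, the latter chosen after seeing the data. No paired analysis was possible because the groups compared share no replicate numbers.

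A gene that the count filter removed from a setting was not counted for that setting. With a minimum count of 50, for example, 8 type 2 genes were tested, against 11 in the main fit. Of 186 named genes called in TE, 171 kept their call and direction in every other setting that tested them. The other 15 lost the call in at least 1, none reversing. Without a single library the edgeR adjusted p of the named genes concerned was between 0.0501 and 0.159: Egr2 without libraries 1, 5 or 6, Hif1a without any but 4, Hspa1b without any but 1 or 7, Ier2 without 3, 5, 6 or 8, Mcl1 without 1, 4, 5 or 6, Mycn without 1, 2, 3, 7 or 8, Pdk1 without 1, 3, 5 or 8, Pdk3 without 1, 4, 7 or 8, Tmsb4x without any but 3 or 8, Trib3 without 4, and Vim without 1, 2, 4, 5 or 8. Library totals in place of TMM factors took the call from Edem1, Eef1a1, Gata3, Ier2, Mcl1, Mycn, Pdk1, Pdk3, Tmsb4x and mt-Co2. Among genes not called, the sign of the log2 difference changed with library totals for Crebbp (0.069), Dlat (0.038), Ep300 (0.022), Pdha1 (0.0045), Pdhb (0.022) and Srebf2 (0.072). With TE libraries alone Srebf2 was 0.0014. It also changed with a library left out for Crebbp (−0.062 to 0.0067, changed without library 3), Ddit4 (−0.020 to 0.12, changed without library 2 or 8), Dld (−0.0021 to 0.086, changed without library 5), Gzmb (−0.086 to 0.19, changed without library 5), Mdm2 (−0.0011 to 0.073, changed without library 8), Psph (−0.0071 to 0.052, changed without library 1 or 6), Srebf2 (−0.068 to 0.020, changed without library 3, 4 or 5) and Tcf7 (−0.23 to 0.052, changed without library 5). The cause of these changes was not tested.

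The depth (at least 55040115 counts a library) limits only the lowest genes, and 4 libraries a group limit small differences. Reads shared by exon overlap or by near copies (50 of the 178 genes named by rule overlap exons of another gene) can be misassigned, and the kit keeps no strand.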

Other observations

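Summed TPM over dendritic cell markers was 5.20 to 6.57 in WT and 1.91 to 4.57 in TPdh-/-, mostly from Itgax and Xcr1, while Siglech and Cd209a were listed at 0. Neutrophil markers summed to 0.94 to 1.42 TPM in WT and 0.82 to 2.14 in TPdh-/-, mast cell or basophil markers to 0.66 to 1.00 and 0.59 to 2.56, erythroid markers to 0.36 to 0.68 and 0.95 to 3.14, and platelet markers to 0.65 to 0.88 and 0.99 to 1.77. Over the 7 B cell markers the sums were 380.4 to 412.3 TPM in WT and 345.7 to 475.4 in TPdh-/-, mostly from Ighm.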
